A study of Mus musculus with 14 samples.

Results

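The pyruvate dehydrogenase complex, the tricarboxylic acid (TCA) cycle and the enzymes that feed carbon into the cycle were examined at the transcript level in mouse heart muscle cells in which Ryr2 was targeted. The genes were a fixed set of 33 symbols, the subunits of the pyruvate dehydrogenase complex with their kinases and phosphatases, enzymes of the cycle and anaplerotic enzymes. All 33 of them were found among the 23337 genes of the count table, and all 33 passed the filter on low counts, as did 11170 genes in all. They lie on 15 chromosomes, 3 of them on the X chromosome. Succinate dehydrogenase is not in this set and is described with the related genes further on.

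Poly(A) RNA was sequenced from cardiomyocytes of Rosa-Cas9GFP mice, which carry Cas9 and GFP, after injection of an adeno-associated virus on postnatal day 1. The treated animals received AAV-Ryr2gRNA (gRNA group, 7 libraries, labelled KO) and the others AAV-Cre (controls, 7 libraries, labelled Ctrl), so both groups carry the Cas9 allele and a virus. Cardiomyocytes were isolated by Langendorff perfusion at an age of 4 weeks and purified by fluorescence-activated sorting. Cre is named in the labels of the control virus alone. The sources used here do not say whether the gRNA virus carried Cre, which promoter drove it or where the guide cuts, so an effect of the guide and one of the vector cannot be told apart. Nothing in the labels says that the libraries came from separate mice, and the p-values measure the spread between these libraries, which may be partly technical.

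Pyruvate enters the mitochondrion and is turned into acetyl-CoA by the pyruvate dehydrogenase complex, which kinases switch off by phosphorylation and phosphatases switch on again. Citrate synthase joins acetyl-CoA to oxaloacetate, and the cycle oxidises the product back to oxaloacetate while passing electrons to the respiratory chain. Anaplerotic reactions, such as the carboxylation of pyruvate, refill the cycle when intermediates leave it. In heart muscle, which depends on oxidative metabolism, calcium in the mitochondrial matrix is known to stimulate a pyruvate dehydrogenase phosphatase, isocitrate dehydrogenase and oxoglutarate dehydrogenase. Ryr2 encodes the ryanodine receptor, through which calcium leaves the sarcoplasmic reticulum for contraction.

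Total counts per library ranged from 5689335 to 13165662. Ryr2 ranged from 602 to 763 counts per 1000000 (CPM, with library sizes scaled by the TMM method of edgeR) in controls and from 225 to 371 CPM in the gRNA libraries, with no overlap, and the gRNA mean was 45.8% of the control mean. The cardiomyocyte markers were Myh6, Actc1, Tnnt2, Tnni3, Ttn, Pln, Actn2 and Mybpc3. They summed to 103534 to 123238 CPM in controls (median 116319) and 86016 to 115539 CPM in gRNA libraries (median 105112). Of these 8 markers 4 were lower in the gRNA group (Actc1, Tnnt2, Tnni3 and Pln). Macrophage markers summed to 23.8 to 112 CPM in controls and 60.7 to 427 CPM in gRNA libraries, with 3 of 9 tested markers higher, and their part in the results was not tested. The summed markers of pericytes and smooth muscle ranged from 990 to 1289 CPM in controls and from 1415 to 2253 CPM in gRNA libraries. Of these 8 markers 3 were higher (Acta2, Cspg4 and Tagln) and 1 lower (Abcc9), while Pdgfrb, Rgs5, Kcnj8 and Myh11 were not called. Acta2 made up most of the sum, with a mean of 696 CPM in controls and 1211 CPM in gRNA libraries, so the sum mainly follows this gene. For fibroblast markers the summed ranges were 187 to 604 and 162 to 1233 CPM, and for endothelial markers 335 to 886 and 270 to 934 CPM. Over all 14 libraries 0 of 7 and 0 of 8 tested markers were called. Adipocyte markers were at or near 0, at most 0.121 CPM in sum, with Plin1, Lep, Cfd and Retn at 0 in all 14 libraries. In such bulk samples fewer cells of a type and less RNA per cell cannot be told apart. On the second principal component, control replicates 4 and 5 and gRNA replicates 4 and 5 (library index 7 to 10 in the labels) stood apart from the other 10 libraries, and values within these sets are given where they differ. Within library index 7 to 10 the fibroblast markers Col1a1, Col1a2, Col3a1, Dcn, Lum and Postn were called higher (log2 fold changes 0.68 to 1.22). Among the other 10 libraries they were not called, while the endothelial markers Cdh5, Kdr, Tie1 and Fabp4 were called lower (-0.60 to -0.48). The macrophage markers Adgre1, C1qa, C1qb, C1qc, Lyz2 and Fcgr3 were called higher in both sets. The part of these cell types in the results was not tested.

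Transcripts of nearly every catalytic enzyme of the complex and the cycle were lower in the gRNA group, those of most kinases and phosphatases of the complex did not pass the test, and pyruvate carboxylase alone among the 33 genes was called higher. In all, 23 of 33 genes were called lower and 1 higher in the gRNA group, and 9 were not called (edgeR quasi-likelihood test, Benjamini-Hochberg adjusted p under 0.05 over 11170 genes). Of all tested genes 28.2% were called, 13.7% lower and 14.5% higher. The median log2 fold change (gRNA minus control) was -0.37 over the 33 genes and 0.01 over all tested genes. No decrease among these genes reached 2-fold. The gRNA means of the 23 lower genes were between 63.1% and 84.0% of the control means, and their adjusted p-values lay between 2.4e-06 and 0.0034. In each of the 23 genes 7 of 7 gRNA libraries were below the control median. For 18 of the 33 genes every gRNA library lay below every control library, as for 4.71% of all tested genes, and for 1 gene every gRNA library lay above every control library, as for 5.84% of all tested genes. Within library index 7 to 10 alone, 23 of the 33 were called lower, against 6.59% of the genes tested there, and among the other 10 libraries 23 of the 33, against 11.6%.

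The decreases must be read against the level of these genes, since abundant transcripts were lower in general. Among 533 other genes whose mean log2 CPM reached 8, 45.6% were called lower and the median log2 fold change was -0.17. Of the 20 genes of the set at that level, 19 were called lower, with a median of -0.45. The exception was the kinase Pdk4. Below that level, 4 of 13 genes of the set were lower and 1 higher, while 11.9% of all tested genes below it were lower and 14.7% higher.

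**Figure D1:**
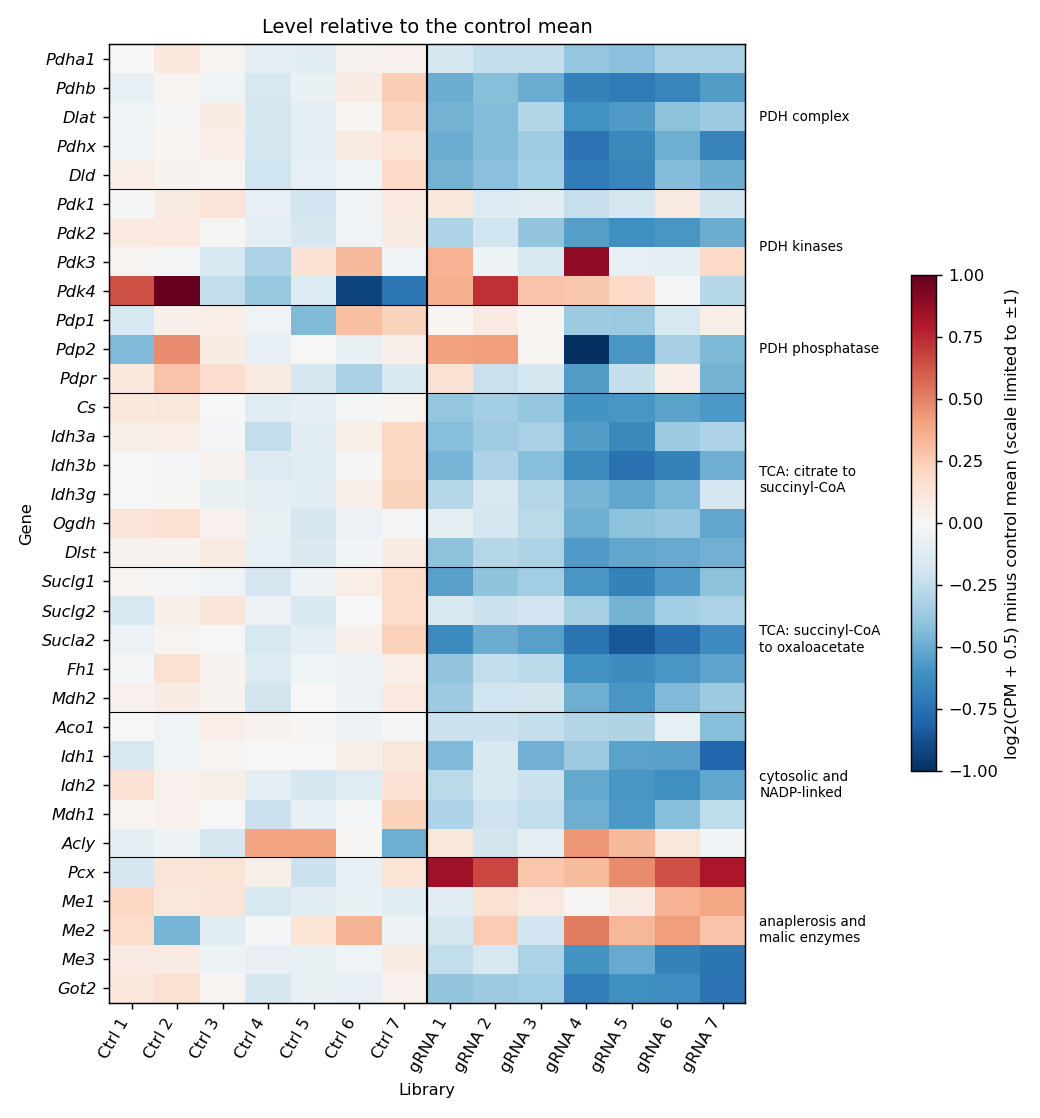
Level of each of the 33 genes (rows, grouped by role) in each of the 14 libraries (columns, 7 controls and 7 gRNA libraries), as log2(CPM + 0.5) minus the control mean on a colour scale limited to ±1. The blocks of the complex and the cycle are blue in the gRNA columns, the kinase and phosphatase rows are mixed, and the Pcx row is red in all 7 gRNA columns.

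The 5 structural genes of the pyruvate dehydrogenase complex were all lower. Pdhb, the beta subunit of the pyruvate dehydrogenase enzyme (chromosome 14, 8165991 to 8172992, minus strand, mm10), ranged from 1279 to 1702 CPM in controls with a median of 1395, and from 876 to 1065 CPM in gRNA libraries with a median of 972. All gRNA libraries were below all controls, and a log2 fold change of -0.58 was found (SE 0.0675, adjusted p = 9.3e-06, edgeR). Its partner Pdha1, the alpha subunit that the kinases phosphorylate, is on the X chromosome and fell less, from a mean of 1632 ± 86.3 to 1325 ± 79.8 CPM (SD, n = 7 each), a log2 fold change of -0.30 (SE 0.0539, adjusted p = 0.00048, edgeR). Whether the 2 subunits differ in their decrease was not tested. 

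The core of the complex is built from the acetyltransferase Dlat and the binding protein Pdhx, which tethers the dihydrolipoamide dehydrogenase Dld. Pdhx ranged from 305 to 379 CPM in controls (median 350) and from 207 to 269 CPM in gRNA libraries (median 244), a log2 fold change of -0.55 (SE 0.0675, adjusted p = 1.6e-05, edgeR). Dld, which also serves the oxoglutarate and branched-chain complexes, ranged from 826 to 1079 CPM (median 965) and from 582 to 748 CPM (median 683), a log2 fold change of -0.50 (SE 0.0687, adjusted p = 4.1e-05, edgeR). Dlat fell by 0.45 on the log2 scale. None of these 3 genes had overlapping groups.

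Among the kinases that phosphorylate and inactivate the complex, Pdk2 fell and the other 3 did not pass the test. Pdk2, the kinase with the highest control mean, ranged from 718 to 863 CPM in controls (median 811) and from 526 to 701 CPM in gRNA libraries (median 571). The groups did not overlap, and a log2 fold change of -0.44 was found (SE 0.0705, adjusted p = 0.00016, edgeR). Pdk1, a kinase known as a target of hypoxia-inducible factor, ranged from 209 to 261 CPM and from 204 to 257 CPM, so that the groups covered almost the same range. Its log2 fold change was -0.09 with a 95% interval of -0.22 to 0.05 (1.96 SE; adjusted p = 0.38, edgeR). Pdk3 was scarce, with 6.03 to 9.58 CPM in controls (median 7.51) and 6.78 to 14.4 CPM in gRNA libraries (median 7.28), a log2 fold change of 0.19 with an interval of -0.14 to 0.52 (adjusted p = 0.45, edgeR).

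Pdk4, the kinase known to be induced by fasting and fatty acids through PPAR receptors, varied more between controls than any other gene of the set. Control replicates 1 to 7 held 915, 2017, 497, 454, 535, 311 and 357 CPM, and gRNA replicates 1 to 7 held 755, 980, 719, 712, 674, 581 and 483 CPM. Control replicate 2 stood far above all other libraries, and 6 of 7 gRNA libraries were above the control median of 497 CPM. The coefficient of variation was 82.8% in controls and 22.1% in gRNA libraries, while the other 32 genes had values of 3.01% (Aco1) to 22.0% (Acly) in controls. The log2 fold change was -0.05 with an interval of -0.72 to 0.61 (adjusted p = 0.93, edgeR). Without control replicate 2 it was 0.45 (adjusted p = 0.14), and within library index 7 to 10 it was 0.44 (adjusted p = 0.013), against -0.22 among the other 10 libraries. A direction for Pdk4 could therefore not be given from these libraries.

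Genes of the pyruvate dehydrogenase phosphatase, which reactivates the complex, were not called. Pdp1, the catalytic subunit known to be stimulated by calcium, ranged from 79.6 to 133 CPM in controls (median 112) and from 83.6 to 114 CPM in gRNA libraries (median 109). Its log2 fold change was -0.11 with an interval of -0.31 to 0.10 (adjusted p = 0.51, edgeR). Pdp2, the other catalytic subunit, was scarce at 8.47 to 16.4 CPM (median 11.7) and 5.54 to 15.7 CPM (median 9.19), a log2 fold change of -0.16 with an interval of -0.57 to 0.25 (adjusted p = 0.62, edgeR). It was called lower within library index 7 to 10 (log2 fold change -0.81, adjusted p = 0.046) and had a log2 fold change of 0.02 among the other 10 libraries. The regulatory subunit Pdpr ranged from 47.6 to 72.8 CPM (median 63.4) and from 40.4 to 66.1 CPM (median 51.0), a log2 fold change of -0.21 with an interval of -0.44 to 0.02 (adjusted p = 0.20, edgeR). These intervals reach decreases of the size measured for some of the enzymes, so equal or smaller changes of the regulators were not shown.

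**Figure D2:**
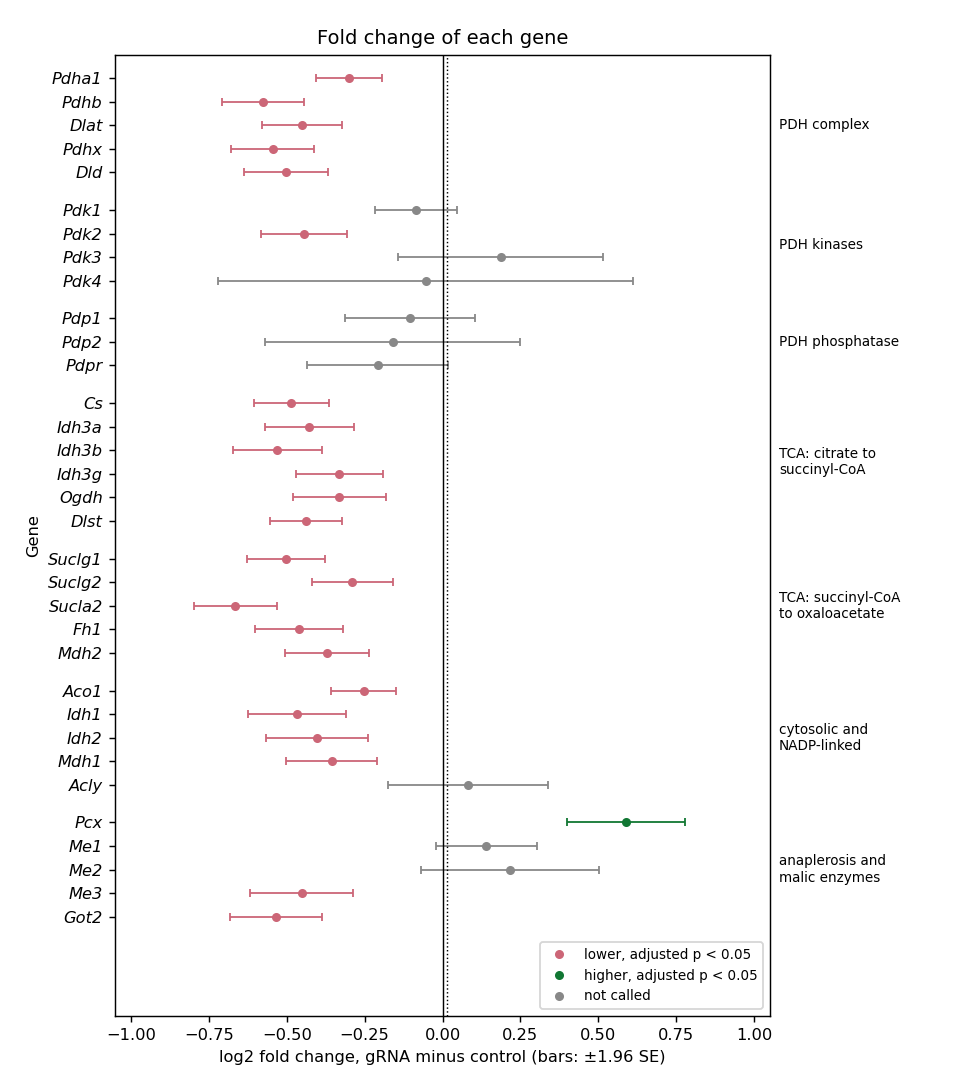
Log2 fold change (gRNA minus control, horizontal axis) of each gene with bars of ±1.96 SE from the edgeR fit over 7 libraries per group. Points are coloured by call, the dotted line marks the median of all tested genes at 0.01, and the 23 genes called lower lie between -0.66 and -0.25.

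In the first part of the cycle, from citrate synthase to succinyl-CoA, 6 of 6 genes were lower, with a median of -0.43. Citrate synthase, Cs, which starts the cycle and is widely used as a measure of mitochondrial content, ranged from 2395 to 2815 CPM in controls (median 2597) and from 1721 to 2063 CPM in gRNA libraries (median 1798). Its groups were separate, with a log2 fold change of -0.49 (SE 0.0612, adjusted p = 1.9e-05, edgeR). The NAD-linked isocitrate dehydrogenase is built from the subunits Idh3a, Idh3b and Idh3g, and all 3 were lower without overlap of the groups. Idh3b ranged from 998 to 1256 CPM (median 1094) and from 648 to 881 CPM (median 777), a log2 fold change of -0.53 (SE 0.0727, adjusted p = 4.2e-05, edgeR), although it overlaps Nop56 in the deposited annotation, and without a stated strand setting reads there cannot be told apart. The catalytic subunit Idh3a changed by -0.43 and Idh3g by -0.33 on the log2 scale.

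The oxoglutarate dehydrogenase complex showed decreases in its own subunits as well. Ogdh, its first enzyme and the most abundant transcript of this part of the cycle by count, ranged from 3824 to 4782 CPM in controls (median 4240) and from 3004 to 4014 CPM in gRNA libraries (median 3291), so that 5 of 7 gRNA libraries lay below all controls. A log2 fold change of -0.33 was found (SE 0.0756, adjusted p = 0.0034, edgeR). Dlst, the succinyltransferase of the complex, fell by 0.44 on the log2 scale from 914 ± 54.7 to 674 ± 50.7 CPM (SD, n = 7 each), with no overlap.

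From succinyl-CoA to oxaloacetate 5 of 5 genes were lower, with a median of -0.46. Sucla2, the ATP-forming beta subunit of succinyl-CoA ligase (chromosome 14, 73552786 to 73596142, plus strand), had the lowest log2 fold change of the 33 genes. It ranged from 1443 to 1893 CPM in controls (median 1608) and from 896 to 1141 CPM in gRNA libraries (median 1037), a log2 fold change of -0.66 (SE 0.0686, adjusted p = 2.4e-06, edgeR). Suclg2, the GTP-forming beta subunit, ranged from 150 to 191 CPM (median 168) and from 120 to 151 CPM (median 134), with 6 of 7 gRNA libraries below all controls. This was a log2 fold change of -0.29 (SE 0.0662, adjusted p = 0.0033, edgeR), and within library index 7 to 10 it was -0.34 and not called (adjusted p = 0.055). The alpha subunit Suclg1, which pairs with either beta subunit, ranged from 829 to 1057 CPM (median 926) and from 583 to 732 CPM (median 640), a log2 fold change of -0.50 (SE 0.0640, adjusted p = 2.1e-05, edgeR).

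Fumarase, Fh1, hydrates fumarate to malate. It ranged from 871 to 1068 CPM in controls (median 943) and from 618 to 809 CPM in gRNA libraries (median 663), a log2 fold change of -0.46 (SE 0.0721, adjusted p = 0.00015, edgeR). The mitochondrial malate dehydrogenase Mdh2, which closes the cycle, ranged from 2328 to 2829 CPM (median 2713) and from 1771 to 2327 CPM (median 2053), a log2 fold change of -0.37 (SE 0.0686, adjusted p = 0.00064, edgeR). Its highest gRNA library was just below its lowest control. Pdha1, Pdpr and Me1 also overlap another, scarcely counted gene, and Got2 has 1 named pseudogene, so their counts are uncertain to that extent.

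Across the 16 genes of the complex and the cycle just described, every one was lower, and 14 of 16 had groups without overlap. Summed over these genes, the transcripts made up 21175 to 25259 CPM in controls (median 23603) and 15650 to 19012 CPM in gRNA libraries (median 16991). In each library the median of the 16 genes was also set against the control mean. This value lay between -0.32 and -0.48 in the 5 gRNA libraries outside library index 7 to 10 and between -0.59 and -0.61 in the 2 inside. Controls showed the same order, with 0.01 to 0.18 in the 5 libraries outside and -0.15 to -0.10 in the 2 inside, so the distance between the groups was present in both sets. Log2 fold changes of the 16 genes were -0.71 to -0.34 within library index 7 to 10 and -0.66 to -0.29 among the other 10 libraries.

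**Figure D3:**
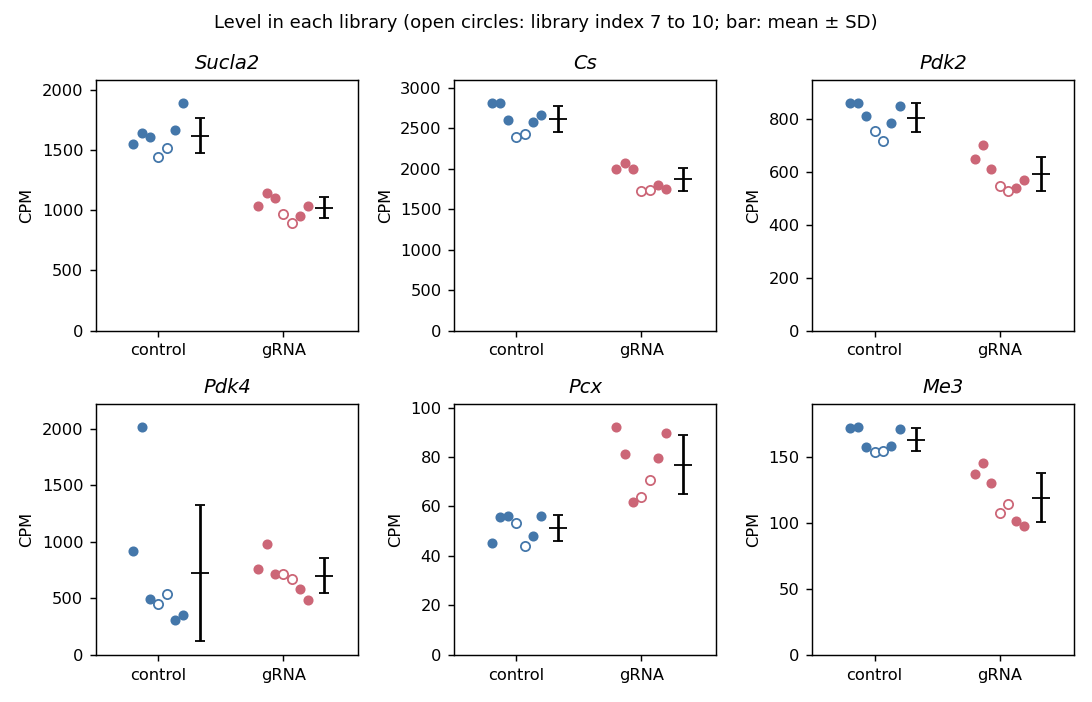
CPM of 6 genes (vertical axes from 0) in each control and gRNA library, with filled circles for the 10 libraries outside and open circles for the 4 libraries inside library index 7 to 10, and the mean ± SD of 7 libraries beside each group. Sucla2, Cs, Pdk2 and Me3 separate downwards and Pcx upwards, while the Pdk4 groups overlap, with control replicate 2 at 2017 CPM.

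Enzymes of the same chemistry outside the NAD-linked cycle mostly fell as well. Mdh1, the cytosolic malate dehydrogenase of the malate-aspartate shuttle and the most abundant transcript of the set per length, ranged from 4475 to 6077 CPM in controls (median 5207) and from 3483 to 4498 CPM in gRNA libraries (median 4193), a log2 fold change of -0.36 (SE 0.0747, adjusted p = 0.0018, edgeR). Idh2, the NADP-linked isocitrate dehydrogenase of mitochondria, ranged from 2529 to 3166 CPM (median 2950) and from 1874 to 2568 CPM (median 2003), a log2 fold change of -0.40 (SE 0.0840, adjusted p = 0.0017, edgeR). Its cytosolic counterpart Idh1 ranged from 80.0 to 96.8 CPM (median 89.3) and from 51.3 to 80.5 CPM (median 64.0), a log2 fold change of -0.47 (SE 0.0800, adjusted p = 0.00033, edgeR). In each of these 3 genes 6 of 7 gRNA libraries were below all controls.

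Aco1, the cytosolic aconitase that doubles as an iron-responsive RNA-binding protein, was very even between libraries. It stood at 103 ± 3.09 CPM in controls against 86.1 ± 6.35 CPM in the gRNA group (SD, n = 7 each), without overlap, a log2 fold change of -0.25 (SE 0.0533, adjusted p = 0.0018, edgeR). With plain library sizes in place of TMM scaling its log2 fold change was -0.12 and not called (adjusted p = 0.11). Acly, which cleaves exported citrate into acetyl-CoA for lipid synthesis, was not called at 39.6 ± 8.71 and 42.0 ± 6.71 CPM (SD, n = 7 each), a log2 fold change of 0.08 with an interval of -0.18 to 0.34 (adjusted p = 0.70, edgeR).

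Among the anaplerotic enzymes the directions differed. Pcx, pyruvate carboxylase, which makes oxaloacetate directly from pyruvate (chromosome 19, 4510472 to 4621752, plus strand), ranged from 44.0 to 56.1 CPM in controls (median 53.3) and from 61.8 to 92.2 CPM in gRNA libraries (median 79.4). Every gRNA library was above every control, and the gRNA mean was 150% of the control mean, a log2 fold change of 0.59 (SE 0.0968, adjusted p = 0.00023, edgeR). Within library index 7 to 10 the log2 fold change was 0.43, where the call was lost (adjusted p = 0.064), and in the other 10 libraries it was 0.63. Of 9 tested macrophage markers 3 were called higher (Lyz2, Adgre1 and C1qb), their summed levels overlapped between the groups as given above, and their part in the level of Pcx was not tested.

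Got2, the mitochondrial aspartate aminotransferase that interconverts oxaloacetate and aspartate, fell. It ranged from 1178 to 1468 CPM in controls (median 1350) and from 793 to 1037 CPM in gRNA libraries (median 864), without overlap and with a log2 fold change of -0.53 (SE 0.0749, adjusted p = 5.2e-05, edgeR).

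Malic enzymes convert malate to pyruvate. Me3, a mitochondrial NADP-linked form, ranged from 154 to 173 CPM in controls (median 159) and from 97.9 to 145 CPM in gRNA libraries (median 115), a log2 fold change of -0.45 (SE 0.0839, adjusted p = 0.00065, edgeR) without overlap. The cytosolic form Me1 ranged from 125 to 161 CPM (median 134) and from 129 to 183 CPM (median 150), a log2 fold change of 0.14 with an interval of -0.02 to 0.30 (adjusted p = 0.23, edgeR). With plain library sizes it was 0.27 and called higher (adjusted p = 0.011). Me2, the NAD-linked mitochondrial form, was scarce at 5.83 to 10.6 CPM (median 8.13) and 7.18 to 12 CPM (median 10.2), a log2 fold change of 0.22 with an interval of -0.07 to 0.50 (adjusted p = 0.30, edgeR).

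Ratios between enzymes of the same or a like reaction were compared in 8 pairs with an exact permutation test, two-sided and over all 3432 assignments of the 14 libraries, with Benjamini-Hochberg adjustment over the 8 pairs. The ratio of Sucla2 to Suclg2 fell. It was between 3.14 and 3.36 on the log2 scale in controls and between 2.78 and 2.98 in gRNA libraries, without overlap, a difference of -0.38 (exact permutation adjusted p = 0.0031, raw p = 0.00058, the smallest this design allows). Me1 rose relative to Me3, from a log2 ratio of -0.22 ± 0.122 to 0.38 ± 0.363 (SD, n = 7 each), a difference of 0.60 (exact permutation adjusted p = 0.0031). Me2 rose relative to Me3 by 0.67 (exact permutation adjusted p = 0.020), although among the other 10 libraries the difference of 0.60 did not pass (exact permutation adjusted p = 0.11).

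The kinase Pdk1 rose relative to Pdk2, from a log2 ratio of -1.75 ± 0.0703 to -1.39 ± 0.182 (SD, n = 7 each), with 7 of 7 gRNA libraries above the control median and a difference of 0.36 (exact permutation adjusted p = 0.0031). Pdk4 relative to Pdk2 was higher by 0.67 in the gRNA group but did not pass (exact permutation adjusted p = 0.12). Without control replicate 2 the difference was 0.95 and passed (exact permutation adjusted p = 0.0047). The remaining 3 ratios did not pass. They differed by 0.02 for Mdh1 to Mdh2, by -0.06 for Idh1 to Idh2 and by -0.12 for Pdp2 to Pdp1 (exact permutation adjusted p = 0.60 each). For the malate dehydrogenases the log2 ratio was 0.97 ± 0.0685 in controls against 0.99 ± 0.0529 in the gRNA group (SD, n = 7 each), so their cytosolic and mitochondrial forms differed in ratio by less than the spread between libraries.

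**Figure D4:**
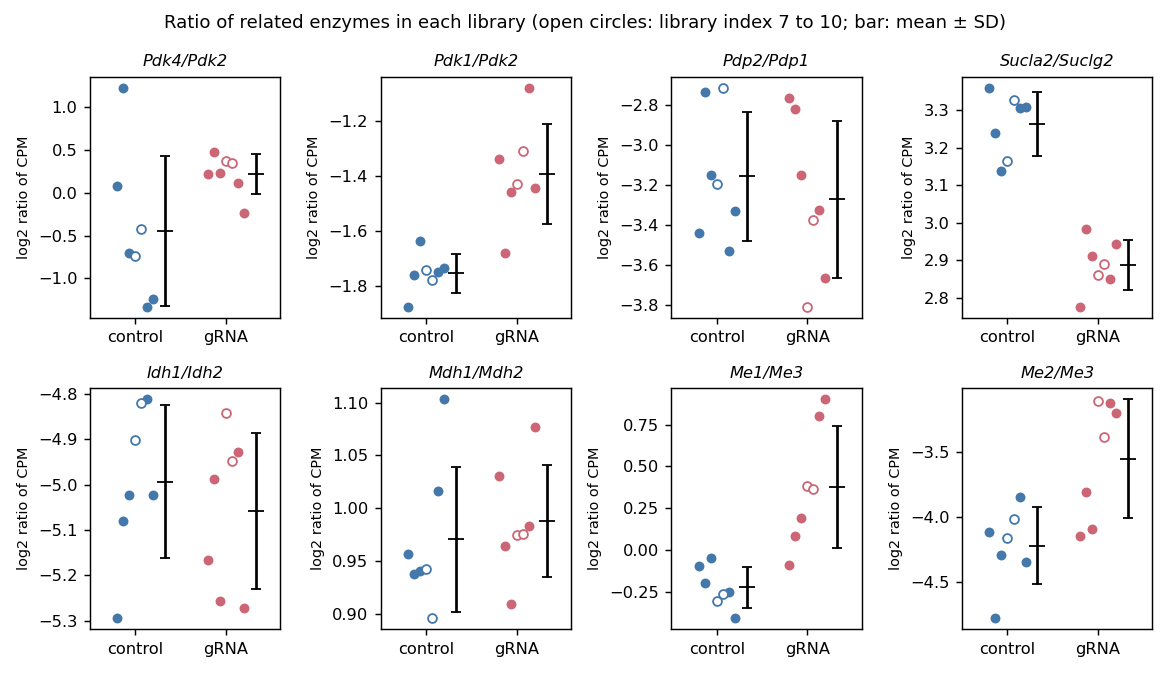
Log2 ratio of CPM for 8 pairs of related enzymes in each library (filled circles, the 10 libraries outside library index 7 to 10, and open circles, the 4 inside), with the mean ± SD of 7 libraries beside each group and axes that do not start at 0. The Sucla2/Suclg2 groups are separate, Me1/Me3 and Pdk1/Pdk2 are shifted upwards with slight overlap, and Mdh1/Mdh2 covers the same range in both groups.

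Levels per length, as CPM per kb of exonic length, spanned a wide range among the 33 genes. Mdh1 (2657 ± 248), Mdh2 (2067 ± 133) and Idh2 (1686 ± 151 CPM per kb, SD, n = 7) led in controls, followed by Pdhb (969 ± 92.7) and Cs (923 ± 58.4), which did not differ beyond their spread. The 3 subunits of the NAD-linked isocitrate dehydrogenase lay within each other's spread, at 737 ± 73.3 CPM per kb for Idh3a, 718 ± 57.0 for Idh3b and 667 ± 55.1 for Idh3g. Sucla2 stood at 767 ± 68.5 CPM per kb and Suclg2 at 73.7 ± 6.74, so that the transcript of the ATP-forming subunit was the more abundant. The corresponding gRNA levels were 484 ± 40.7 and 60.2 ± 4.56 CPM per kb.

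Within the pyruvate dehydrogenase complex the control levels were uneven. Pdhb was followed by Pdha1 (591 ± 31.3 CPM per kb), Dld (423 ± 35.5), Dlat (269 ± 23.8) and Pdhx (137 ± 10.3), each separated from the next by more than the sum of their SDs. In the gRNA group Pdhb stood at 650 ± 48.2 and Pdha1 at 480 ± 28.9 CPM per kb. Of the kinases Pdk2 (356 ± 24.8 CPM per kb in controls) and Pdk4 (210 ± 174) exceeded Pdk1 (46.5 ± 3.61) and Pdk3 (3.82 ± 0.568), and Pdk2 and Pdk4 did not differ beyond the spread of Pdk4. Me2, Pdp2 and Pdk3 were the scarcest transcripts of the set, all under 4 CPM per kb in controls. Exonic lengths are those of the deposited annotation, which need not match the transcripts made in these cells.

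**Figure D5:**
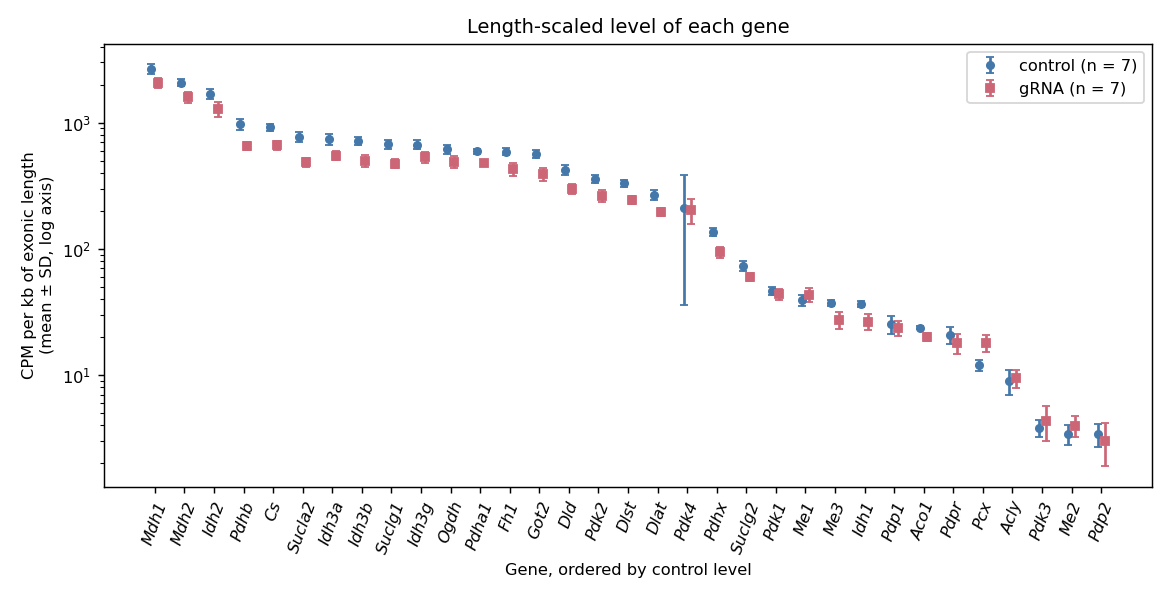
Mean CPM per kb of exonic length (log axis, bars ± SD, 7 libraries per group) of the 33 genes, ordered by control level from Mdh1 at 2657 to Pdp2 at 3.39. The gRNA squares lie below the control circles for most abundant genes, and above them for Pcx.

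Other genes of the pathway were drawn from a list of 46 related genes, of which 43 were tested. Of these, 26 were lower and 4 higher, with a median of -0.26, beside 13.7% lower and 14.5% higher among all tested genes. With plain library sizes in place of TMM scaling 17 were lower. Both subunits of the mitochondrial pyruvate carrier were lower. Mpc2 (listed as Brp44) ranged from 464 to 679 CPM in controls (median 577) and from 296 to 477 CPM in gRNA libraries (median 371), a log2 fold change of -0.63, and Mpc1 (listed as Brp44l) had one of -0.40. Ogdhl, a paralogue of Ogdh, ranged from 81.0 to 105 CPM (median 89.6) and from 31.8 to 49.0 CPM (median 40.1), a log2 fold change of -1.22 (SE 0.0932, adjusted p = 9.9e-08, edgeR). It was the largest decrease among the tested genes of this list and the 33, and its count was far below that of Ogdh.

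Of the 4 subunits of succinate dehydrogenase, which links the cycle to the respiratory chain, 3 were lower. Sdha fell by 0.53, Sdhb by 0.46 and Sdhd by 0.46 on the log2 scale, each without overlap of the groups. The membrane subunit Sdhc was not called at 705 ± 79.2 and 593 ± 94.5 CPM (SD, n = 7 each), a log2 fold change of -0.25 (adjusted p = 0.067, edgeR). Of its assembly factors, Sdhaf2 was lower (-0.22, adjusted p = 0.020, edgeR) and Sdhaf1 was not called (-0.17, adjusted p = 0.25, edgeR). Aldh5a1 (-0.61), which makes succinate from succinic semialdehyde, Mcee (-0.59), an enzyme of the route from propionyl-CoA to succinyl-CoA, and the oxoglutarate carrier Slc25a11 (-0.51) were also lower.

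The 4 related genes that were higher had been listed under carbon entry and exit, mitochondrial carriers and acetyl-CoA. Pck2, the mitochondrial phosphoenolpyruvate carboxykinase, which draws oxaloacetate out of the cycle and is known as a target of ATF4, ranged from 3.0 to 7.26 CPM in controls (median 4.53) and from 26.4 to 70.9 CPM in gRNA libraries (median 38.9). This was a log2 fold change of 3.13 (SE 0.228, adjusted p = 5.6e-08, edgeR). Slc25a1, the citrate carrier, ranged from 2.52 to 4.72 CPM (median 3.84) and from 4.47 to 8.05 CPM (median 7.2), a log2 fold change of 0.92. Abat, a transaminase of the GABA route to succinate, rose by 0.60 and Acss2, which makes acetyl-CoA from acetate, by 0.17. Of these 4 calls that of Pck2 was also made within library index 7 to 10, where the log2 fold changes of Slc25a1, Abat and Acss2 were 0.59, 0.65 and 0.14 with adjusted p = 0.19, 0.062 and 0.50 (edgeR). Among the other 10 libraries Acss2 was not called either (0.17, adjusted p = 0.13, edgeR). Over all 14 libraries its adjusted p was 0.036 (edgeR).

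Because so many of these genes were lower together, their promoters were searched for 4 short motifs on both strands, in windows from 250 bases before to 50 after the RefSeq start (GRCm38.p6). Of the 33 genes, 30 had such a window and Idh3a, Me2 and Pdp1 had none in the table. The estrogen-related receptor element TCAAGGTCA was in 0 of 30 genes and in 0.347% of 8078 tested genes with a window. An NRF1 element, GCGC and TGCGC with 1 free base between them, was in 2 of 30 (Sucla2 and Dld, 6.67%) and in 12.2% of the tested genes. The antioxidant response element TGACNNNGC was in 6 of 30 (Dlst, Idh3g, Mdh1, Me1, Pdhb and Sucla2, 20%) and in 17.5%, and the C/EBP-ATF response element TGATGNAA in 1 of 30 (Me3, 3.33%) and in 2.77%. The motifs can overlap each other, and a match or its absence in this window says nothing about binding of a factor. The stretches just before the start of Sucla2, with the lowest log2 fold change of the set, and of Me3, the malic enzyme that fell, are shown with the matched motif in capitals: the NRF1 element in Sucla2 (chr14:73552744-73552785, plus strand), the antioxidant response element further upstream, matched on the opposite strand (chr14:73552546-73552604), and the C/EBP-ATF response element in Me3, also on the opposite strand (chr7:89632759-89632816, plus strand).
Sucla2 NRF1 element: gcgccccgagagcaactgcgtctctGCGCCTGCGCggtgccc
Sucla2 antioxidant response element: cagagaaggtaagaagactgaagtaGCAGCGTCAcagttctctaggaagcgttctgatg
Me3 C/EBP-ATF response element: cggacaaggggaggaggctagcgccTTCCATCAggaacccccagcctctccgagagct

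At an adjusted p under 0.05 the authors' deposited table held the same 23 decreases and 1 increase, and its call was the same as the present one for 33 of 33 genes. In the authors' deposited table the log2 fold change was -0.68 for Sucla2, 0.58 for Pcx and -0.06 for Pdk4. The effects in the 2 library sets were also compared by an interaction term over all genes (edgeR quasi-likelihood test). It called 0 of 11170 genes (0%), and 339 genes had an unadjusted p under 0.05, of which 0 were among the 33. Library index 7 to 10 holds only 2 libraries of each group, so the test could miss differences, and equal effects in both sets were not shown.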

How the data were processed

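The authors deposited a table of raw, whole-number counts per gene for 14 libraries. Per the labels, PureLink, SMART-Seq v4 and Nextera XT kits were used, and per the submitters' processing notes STAR, featureCounts, DESeq2 and DESeq with mm10; the sources used here give neither versions nor the strand setting. The authors' deposited table gives log2 fold changes, p-values, a mean signal and the Wald score of DESeq2, per the file headers; of these only the log2 fold changes and adjusted p-values were used. The present fit used the quasi-likelihood test of edgeR 4.0.16 (R 4.3.3) on all 14 libraries with filterByExpr, TMM scaling and no covariate, with Benjamini-Hochberg adjustment over 11170 genes; SE is the log2 fold change over the square root of F. CPM were computed from the counts and TMM-scaled library sizes. Ratios used CPM with a pseudocount of 0.5. On simulated counts of 11074 genes the fit called 52.2% of genes lowered by 0.5 (log2) and 84.8% of those lowered by 1.

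Members and gene lists were chosen with earlier results of these data known. Ranges per library are given for the 12 called members with the largest absolute log2 fold change, every higher member, Cs, the kinases and phosphatases and the genes of the ratios; Ogdh was added after its values were seen. Of the related genes, all higher ones and the 8 lowest were to be named, of which 1 is not reported here, and Mpc1, Sdhc, Sdhd, Sdhaf1 and Sdhaf2 were added after their values were seen. Deposited positions are in mm10. Alternatives were DESeq2 1.42.0, other scalings and filters, a replicate block, library sets and leaving out each library. Among 42 pairs of replicates the counts differed beyond sampling noise (chi-square per degree of freedom 4.82 to 28.5). SMART-Seq reads carry no molecular identifiers.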

Additional observations from a re-analysis of the deposited data

Results flagged for a closer look

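In 66 groups of 7 libraries (33 genes, 2 groups each), a highest or lowest value was set against the range of its group, with a critical ratio of gap to range of 0.568. Chance alone would pass about 1 in 20 groups, and 2 passed. Pdk4 in control replicate 2 was 2017 CPM, with the next control at 915 CPM (ratio 0.646). Pdk3 in gRNA replicate 4 was 14.4 CPM, with the next gRNA library at 9.79 CPM (ratio 0.605).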

How the results depend on the processing

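Over 24 alternatives 22 to 23 of the 33 genes were called lower. The 24 called genes kept direction and call in 573 of 576 values, the exceptions being Suclg2 and Pcx within library index 7 to 10 and Aco1 with plain library sizes; Pdp2 (lower) and Pdk4 (higher) were called only in that set, so its 23 and 1 calls are not all of the same genes. Plain library sizes moved the median of the 33 genes from -0.37 to -0.24, so the size of their decrease depended on the scaling. The median of all genes moved from 0.01 to 0.15 and the share of lower among all calls from 48.5% to 21.8%. This scaling gave 2 higher genes of the set (Pcx and Me1), 17 lower related genes, and 852 lower and 3064 higher genes in all. Within library index 7 to 10 (2 against 2) 1 related gene was higher, 777 genes were lower and 689 higher, and the Pdp2 to Pdp1 difference was -0.63, against 0.092 in the other 10 libraries; Me2 to Me3 was 0.60 there. Genes not called that changed sign were Pdk1 (0.048), Pdp1 (0.024) and Pdk4 (0.091) with plain library sizes, Acly (-0.055) and Pdk4 (0.44) within library index 7 to 10, and Pdp2 (0.018) in the other 10. The causes were not tested. Leaving out 1 library gave 23 lower and 1 higher genes of the set each time, and values from -0.19 to 0.45 for Pdk4, above 0 without control replicate 1 or 2 or gRNA replicate 7; Pdk4 to Pdk2 ranged from 0.52 to 0.95. With a replicate block Pdk4 was 0.22 (adjusted p = 0.37, edgeR), the block changed no call among the 33, and 1848 genes were lower and 1922 higher in all (1528 and 1621 without it); same-numbered libraries correlated by 0.061 to 0.53, and 3 of 14 correlated best with their own number, so the numbers were not taken as pairs. Depth limits scarce genes such as Pdk3, Pdp2 and Me2.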
